A study of Mus musculus with 24 samples.

Results

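The 10 genes described here are the regulators that carry a cell into mitosis and out of it again, namely *Plk1*, *Aurka*, *Tpx2*, *Cdc25b*, *Cdc25c*, *Wee1*, *Cdc20*, *Ube2c*, *Fbxo5* and *Espl1*. They were taken by name from the 49315 genes listed in each count file, so that 10 of 49315 genes are members, and all 10 passed the filter on low counts in every comparison. The cells were primary astrocytes from the cortex of wild type C57BL/6J mouse embryos (E18.5), grown without any transgene, at passage 1. Each preparation mixed the cells of a whole litter and served a single experiment, so that a library stands for a culture and not for an animal. Dishes were exposed to 0 Gy (mock-irradiated), 0.1 Gy or 2 Gy X-rays and harvested 6 h or 24 h later, with 4 libraries in each of the 6 groups, numbered 1 to 4.

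Mitosis starts when the kinase CDK1 with its cyclin B partner is switched on. Before that, the kinase WEE1 keeps CDK1 phosphorylated and silent, and the phosphatases CDC25B and CDC25C remove that phosphate, while Aurora A (*Aurka*), activated on the spindle by TPX2, and polo-like kinase 1 (*Plk1*) push the switch over. Cells leave mitosis when the anaphase-promoting complex (APC/C), a ubiquitin ligase, is loaded with its activator CDC20 and served by the ubiquitin-conjugating enzyme UBE2C; it then frees separase (*Espl1*), the protease that opens the cohesin rings. EMI1, the product of *Fbxo5*, holds the APC/C inactive through S and G2 phase. Most of these genes are transcribed late in the cycle, which makes them low in tissue that does not divide and high in growing cultures.

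Libraries held 14742855 to 38194800 counts in total, and a member was read from 45 counts (*Cdc25c*) to 2484 counts (*Tpx2*) per library. Levels are given as CPM, the usual depth-scaled counts, after TMM normalization (trimmed mean of M-values). All 10 astrocyte markers checked were expressed, with a summed level from 2040 to 2930 CPM. The 8 microglial markers summed to 1330 to 2090 CPM in the libraries of replicates 1, 3 and 4 but to 245 to 280 CPM in the 6 libraries of replicate 2, and so stood apart at every dose and time. The markers of other cells were present as well, and they differed between replicates too. The 8 of the oligodendrocyte lineage summed to 288 to 816 CPM per library, led by *Olig1* (mean 315 CPM) and *Olig2* (98.9 CPM), the 8 of neurons to 400 to 727 CPM, led by *Map2* (223 CPM) and *Stmn2* (214 CPM), with 594 to 727 CPM in replicate 2 and at most 580 CPM in the others, and the 8 of fibroblasts and vessels to 287 to 1410 CPM, led by *Col1a1* (455 CPM) and *Col1a2* (261 CPM). The fibroblast and vessel markers summed to 764 to 1410 CPM in replicate 1, 945 to 1320 CPM in replicate 2, 453 to 720 CPM in replicate 3 and 287 to 419 CPM in replicate 4, and the part of these differences in the members' values was not tested. In the same lists *Sox10*, *Mog*, *Rbfox3*, *Dcx*, *Snap25*, *Nefl*, *Lum*, *Pecam1* and *Cldn5* had means under 1 CPM over the 24 libraries, with up to 2.81 CPM (*Sox10*) in a single one. RNA of whole cultures was sequenced, so a lower level can mean fewer cells of a kind or less RNA per cell, which cannot be told apart.

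Promoters of 7 members were found in RefSeq's table for GRCm38.p6. They are shown because the members moved together and because the promoters of many late cell cycle genes share a pair of short elements, the cell cycle genes homology region (CHR) and the CCAAT box, bound by the MuvB complexes and by NF-Y, respectively. Each line gives the 150 bases from 120 bases before the RefSeq start to 30 bases after it, 5′ to 3′ on the strand of the gene. Capitals mark every match to TTTGAA or TTTAAA (CHR) and to CCAAT on either strand, so that a match on the opposite strand reads TTCAAA or ATTGG.
Fbxo5 (chr10:5805436-5805585, minus strand): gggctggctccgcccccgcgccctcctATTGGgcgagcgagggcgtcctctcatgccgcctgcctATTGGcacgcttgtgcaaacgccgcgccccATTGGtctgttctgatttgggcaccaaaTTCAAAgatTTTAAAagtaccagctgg
Ube2c (chr2:164769809-164769958, plus strand): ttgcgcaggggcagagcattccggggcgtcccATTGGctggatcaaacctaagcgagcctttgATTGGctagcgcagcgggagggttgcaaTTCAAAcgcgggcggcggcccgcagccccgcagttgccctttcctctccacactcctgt
Aurka (chr2:172370541-172370690, minus strand): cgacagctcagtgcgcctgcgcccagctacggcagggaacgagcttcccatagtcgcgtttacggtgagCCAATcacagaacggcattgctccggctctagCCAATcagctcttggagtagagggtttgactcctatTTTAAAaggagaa
Plk1 (chr7:122159315-122159464, plus strand): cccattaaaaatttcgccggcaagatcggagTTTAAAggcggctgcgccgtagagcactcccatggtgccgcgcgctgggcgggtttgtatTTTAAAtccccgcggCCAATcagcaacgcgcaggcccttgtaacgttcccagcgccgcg
Espl1 (chr15:102296173-102296322, plus strand): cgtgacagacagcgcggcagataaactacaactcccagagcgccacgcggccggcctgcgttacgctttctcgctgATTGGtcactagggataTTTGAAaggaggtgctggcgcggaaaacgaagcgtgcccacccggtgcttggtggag
Cdc20 (chr4:118437314-118437463, minus strand): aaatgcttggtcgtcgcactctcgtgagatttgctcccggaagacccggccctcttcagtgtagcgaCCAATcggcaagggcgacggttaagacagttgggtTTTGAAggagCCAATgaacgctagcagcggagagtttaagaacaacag
Cdc25b (chr2:131186828-131186977, plus strand): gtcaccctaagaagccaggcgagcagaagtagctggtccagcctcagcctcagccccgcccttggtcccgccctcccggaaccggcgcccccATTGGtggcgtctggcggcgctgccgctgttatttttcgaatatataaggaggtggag

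CCAAT was present in the 300 bases around the start (250 before and 50 after) in 7 of 7 members, compared with 37.4% of the 32851 promoters of the table. TTTGAA was present in 6 of 7 members and in 17.9% of all promoters, and TTTAAA in 3 of 7 and in 13.2%. A CCAAT box together with either form of the CHR was found in 6 of 7 members, against 10.7% of all promoters. *Cdc25b* was the member without a CHR of these letters in the window. *Fbxo5* carried 3 CCAAT boxes whose first bases lay 93, 55 and 25 bases before the start, followed by TTTGAA and TTTAAA 3 and 12 bases after it, and *Cdc20* carried TTTGAA 18 bases before the start between CCAAT boxes at 53 and 8 bases. *Ube2c* held 6 CCAAT boxes, 4 of them upstream of the stretch shown, where a pair overlapped on opposite strands. In *Plk1* and *Aurka* a TTTGAA lay 30 and 32 bases after the start, just outside the stretch. These are matches of letters and were not tested as binding sites.

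The genes lie on 6 chromosomes of GRCm38. *Aurka* (ENSMUSG00000027496, chromosome 2, 172356190 to 172370535, minus strand), *Tpx2* (ENSMUSG00000027469, chromosome 2, 152847964 to 152895321, plus strand), *Ube2c* (ENSMUSG00000001403, chromosome 2, 164769898 to 164778822, plus strand) and *Cdc25b* (ENSMUSG00000027330, chromosome 2, 131186949 to 131198497, plus strand) share a chromosome. *Plk1* (ENSMUSG00000030867, 122159439 to 122169873) and *Wee1* (ENSMUSG00000031016, 110122046 to 110143286) lie on the plus strand of chromosome 7. *Cdc20* (ENSMUSG00000006398, chromosome 4, 118432901 to 118437352) and *Fbxo5* (ENSMUSG00000019773, chromosome 10, 5799160 to 5805600) are on minus strands, *Espl1* (ENSMUSG00000058290, chromosome 15, 102296293 to 102324356) is on a plus strand, and *Cdc25c* (ENSMUSG00000044201, chromosome 18, 34732997 to 34751533) is on a minus strand. Whether reads were counted by strand is not stated, so genes that overlap a member matter for its count. *Cdc20* shares 53 bp with *Elovl1* on the other strand, which collected 44915 counts in the 24 libraries against 16142 for *Cdc20*, and *Cdc25b* shares 334 bp with *Spef1* (5110 against 6300 counts). The genes overlapping *Wee1*, *Plk1*, *Cdc25c*, *Ube2c* and *Tpx2* had 577 counts at most, and *Aurka*, *Fbxo5* and *Espl1* overlap no other gene. The values of *Cdc20* and *Cdc25b* are uncertain to that extent.

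Per length of transcript, the members fell into an abundant and a scarce set. In mock-irradiated cells at 6 h, *Cdc20* had the highest level with 18.8 ± 3.87 RPKM (SD, n = 4), followed by *Ube2c* (14.4 ± 1.58), *Tpx2* (14.2 ± 3.63), *Wee1* (13.6 ± 1.21) and *Plk1* (13.4 ± 2.47). *Aurka* stood at 6.94 ± 1.11 RPKM and *Fbxo5* at 4.80 ± 0.568 RPKM. *Cdc25b* (3.22 ± 0.395), *Espl1* (3.20 ± 0.676) and *Cdc25c* (2.94 ± 0.866) were the scarcest. Differences among the 4 genes from *Ube2c* to *Plk1*, and among the last 3, were smaller than the SD of the libraries. The APC/C activator *Cdc20* was thus at a higher level than *Fbxo5*, the inhibitor, in all 24 libraries on the per-length scale, and the CDK1 inhibitor *Wee1* was above both CDC25 phosphatases.

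Setting 2 Gy against mock irradiation at 24 h asks whether these genes had moved a day after a high dose. All 10 were lower after 2 Gy, and each of them was lower in 4 of 4 pairs of libraries with the same number. The share of all genes lower in 4 of 4 pairs was not counted. The median log2 fold change of the members was −0.70, compared with 0.01 for all 15892 genes tested. Fold changes ran from −1.43 for *Fbxo5* to −0.24 for *Cdc20* in edgeR's quasi-likelihood test without pairing. That test called 0 of 10 members at an adjusted p under 0.05, as it called 0% of all genes; 7 members had an unadjusted p under 0.05 (3.59% of all genes), and DESeq2 called 3 (*Aurka*, *Tpx2* and *Fbxo5*), with 0.712% of all genes lower. Libraries with the same number deviated together, and once this number entered the model as a block, edgeR's quasi-likelihood test called 7 of 10 members as lower, where 6.69% of all genes were called lower. DESeq2 with the block called 8 (9.21% of all genes). In edgeR's blocked fit 9 members and 32.3% of all genes had an unadjusted p under 0.05. For 7 of 10 members every library after 2 Gy lay below every mock-irradiated library, a separation that 2.01% of all genes showed. The called 7 were *Plk1*, *Aurka*, *Tpx2*, *Fbxo5*, *Ube2c*, *Cdc25c* and *Espl1*. Without replicate 1, without replicate 2 or without replicate 4 the blocked fit called 2 members, *Tpx2* and *Fbxo5* each time, and without replicate 3 it called 9. The share of all genes called lower in these fits was 0.680%, 0.376% and 0.875%, and 16.4% without replicate 3. The fold changes themselves hardly depended on replicate 2, the one low in microglial and high in neuronal markers: without it the blocked log2 fold changes ran from −1.38 (*Fbxo5*) to −0.34 (*Cdc25b*), all 10 below 0.

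**Figure D1:**
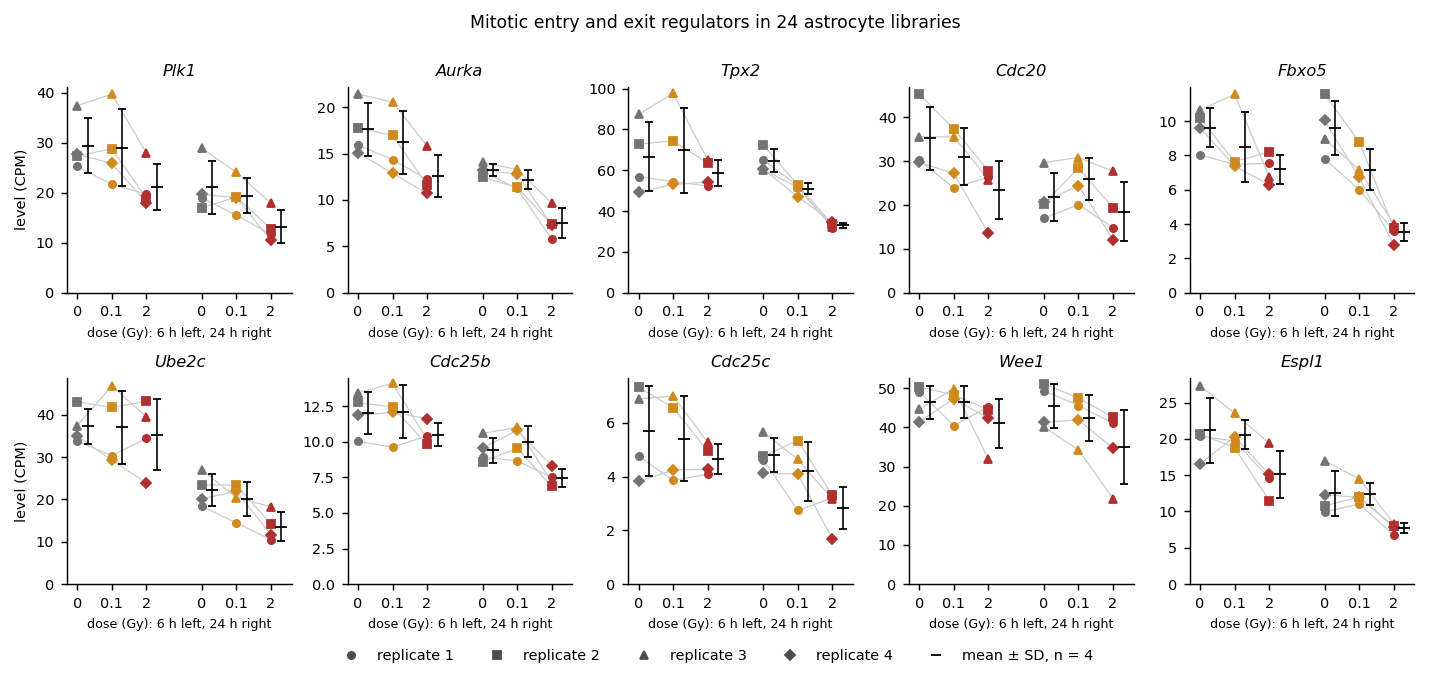
Levels of the 10 members in CPM (vertical axes, from 0) against dose, with 6 h on the left and 24 h on the right of each panel. Symbols are the replicate numbers, grey lines join libraries of a number within a time, and bars give the mean ± SD of 4 libraries; *Tpx2* at 24 h steps from 64.6 to 50.9 and 33.0 CPM, while *Cdc20* goes from 21.9 to 25.9 and 18.5 CPM.

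Among the kinases of mitotic entry and their activator, *Tpx2* had the narrowest range of pair ratios, from −1.11 to −0.81 on the log2 scale. In mock-irradiated cells at 24 h *Tpx2*, the spindle protein that switches on Aurora A, was at 65.1, 72.4, 60.3 and 60.6 CPM in replicates 1 to 4, and after 2 Gy at 32.0, 33.6, 32.0 and 34.6 CPM. The groups were far apart, and the 4 libraries after 2 Gy were close to each other (SD 1.30 CPM). The log2 fold change was −0.96 (SE 0.0897, adjusted p = 0.00186 by edgeR with the block, 0.163 without it), and the mean level was 51.1% of that in mock-irradiated cells. *Tpx2* was called by the blocked fit under each other tool, scaling, filter and correction tried and without any one replicate, with an adjusted p of 0.0343 at most, but not where a log2 fold change of at least 1 was asked for as well.

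*Aurka*, the kinase itself, went from 13.1, 12.4, 14.0 and 13.2 CPM to 5.79, 7.36, 9.66 and 7.28 CPM. No library of one group reached the other, and the spread was wider after 2 Gy (SD 1.60 CPM) than in mock-irradiated cells (SD 0.657 CPM). The log2 fold change of −0.82 (SE 0.128) was called with the block (adjusted p = 0.0106) and not without it (adjusted p = 0.438, both edgeR's quasi-likelihood test). *Plk1*, the kinase that acts from centrosome to midbody, went from 18.9, 17.0, 28.8 and 19.7 CPM to 11.7, 12.8, 17.9 and 10.5 CPM. Here the groups overlapped, and replicate 3 was the highest library in both of them. Within pairs *Plk1* fell by 0.41 to 0.91 on the log2 scale, and the blocked fit gave −0.67 (SE 0.112, adjusted p = 0.0128; 0.94 without the block, by edgeR).

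The 3 genes that set the phosphate on CDK1 moved less evenly. *Cdc25c*, the phosphatase of the final activation step, was at 4.64, 4.75, 5.66 and 4.13 CPM in mock-irradiated cells and at 3.20, 3.30, 3.16 and 1.67 CPM after 2 Gy. The groups did not overlap, and replicate 4 after 2 Gy lay well under the other 3. Its log2 fold change by edgeR was −0.79 (SE 0.182, adjusted p = 0.0287) with the block, −0.71 (adjusted p = 0.0829) with a correction for GC content and length added, and −0.76 (adjusted p = 0.94) without the block. *Cdc25b*, the phosphatase thought to start the process at the centrosome, stood at 9.41 ± 0.880 CPM and after 2 Gy at 7.46 ± 0.625 CPM (SD, n = 4 each) without overlap, a log2 fold change of −0.33 that missed the threshold (adjusted p = 0.0936 with the block, edgeR) but passed it with all 24 libraries in the blocked fit (9 members called, 1738 of 17353 genes lower). *Wee1*, the kinase that opposes them, stood at 49.4, 51.1, 40.1 and 41.3 CPM and after 2 Gy at 41.0, 42.6, 21.8 and 34.7 CPM. The log2 ratio was −0.88 in the pair of replicate 3 and −0.27 to −0.25 in the other 3 pairs, and the fold change of −0.41 was not called (adjusted p = 0.0567 with the block, edgeR). *Wee1* was called by DESeq2 with the block, as the eighth member, by edgeR with all 24 libraries in the blocked fit, and without replicate 3. Activators and inhibitor of CDK1 thus pointed the same way at 24 h.

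Of the genes of the APC/C and of mitotic exit, *Fbxo5* had the lowest fold change of the 10 members and *Cdc20* the one nearest to 0. *Fbxo5* was at 7.81, 11.6, 8.97 and 10.04 CPM in mock-irradiated cells and at 3.61, 3.75, 4.01 and 2.78 CPM after 2 Gy. The groups lay far apart, and the drop was present in each pair, from −1.85 in replicate 4 to −1.11 in replicate 1 on the log2 scale. The log2 fold change was −1.44 (SE 0.162, adjusted p = 0.00284 with the block and 0.184 without it, edgeR), the mean level was 36.9% of that in mock-irradiated cells, and the change was called under every alternative to the blocked fit, with an adjusted p of 0.0418 at most. *Fbxo5* is among the genes the study selected on these same libraries, so its direction here is no independent evidence. *Cdc20* was at 17.0, 20.3, 29.7 and 20.7 CPM and after 2 Gy at 14.9, 19.3, 27.7 and 12.1 CPM, with groups that overlapped over most of their range. The pairs of replicates 1 to 3 differed by 0.07 to 0.19 on the log2 scale and that of replicate 4 by 0.77. The blocked fold change of −0.27 (SE 0.133) was not called (adjusted p = 0.189), and the fit with an added correction for GC content and length gave −0.53 (adjusted p = 0.0361 by edgeR). Without replicate 3 the blocked fit called *Cdc20* (−0.33, adjusted p = 0.0435, edgeR), where 16.4% of all genes were called lower. Without replicate 4 the fold change was −0.11.

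*Ube2c*, which hands ubiquitin to the APC/C, went from 18.4, 23.4, 27.0 and 20.2 CPM to 10.5, 14.1, 18.3 and 11.6 CPM. The groups barely cleared each other, 18.3 CPM after 2 Gy against 18.4 CPM in mock-irradiated cells, and the pair ratios were alike, between −0.81 and −0.56 on the log2 scale. The blocked fit gave −0.72 (SE 0.0992, adjusted p = 0.00675, edgeR; 0.94 without the block). *Espl1*, the separase, went from 9.94, 10.8, 17.0 and 12.3 CPM to 6.75, 7.99, 8.34 and 7.84 CPM. Its groups did not overlap either, and the spread shrank from an SD of 3.14 CPM to 0.688 CPM, with a log2 fold change of −0.67 (SE 0.131, adjusted p = 0.0187 with the block, 0.934 without it, by edgeR).

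**Figure D2:**
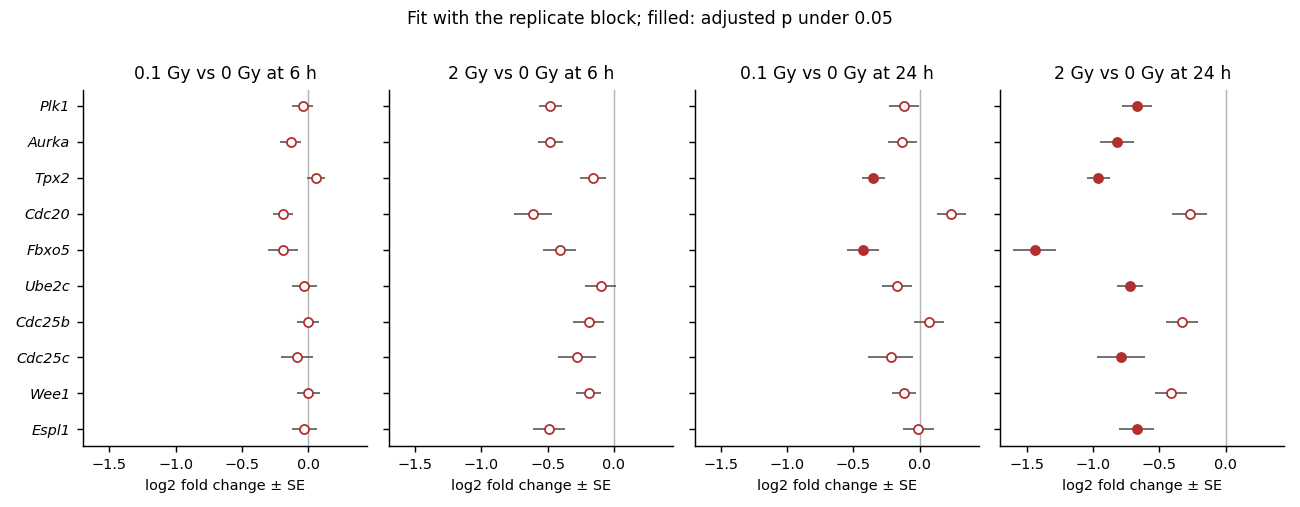
Log2 fold change against mock-irradiated cells (horizontal axes, ± SE) of each member at both doses and times, from the fit with the replicate block; filled points had an adjusted p under 0.05. At 24 h after 2 Gy 7 points are filled and *Fbxo5* lies at −1.44, at 24 h after 0.1 Gy *Tpx2* and *Fbxo5* are filled, and at 6 h no point is filled.

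At 6 h after 2 Gy the members were already below the mock level on average, with a median log2 fold change of −0.36 (all 15994 genes 0.00), but none passed the threshold in edgeR's fits with and without the block. edgeR's quasi-likelihood test called 0 of 10 members without the block (0% of all genes) and 0 of 10 with it (0% of all genes). At an unadjusted p under 0.05 there were 5 members in both fits (1.34% of all genes without and 6.88% with the block), and DESeq2 called 0 and, with the block, 2 (*Plk1* and *Cdc20*, with 0.0683% of all genes lower). The 5 were *Plk1* (−0.48), *Aurka* (−0.48), *Cdc20* (−0.59), *Fbxo5* (−0.42) and *Espl1* (−0.49), each lower in 4 of 4 pairs, and their lowest adjusted p in edgeR's blocked fit was 0.193. *Cdc20* was the one member of 10 without overlap, which 0.707% of all genes showed as lower. It went from 30.2, 45.3, 35.5 and 29.7 CPM to 26.4, 27.8, 25.8 and 13.5 CPM, replicate 4 after 2 Gy being far below the other 3. The 4 pair ratios of *Plk1* ran from −0.62 to −0.36 and those of *Aurka* from −0.61 to −0.38 on the log2 scale, a narrow range for both kinases. *Ube2c* hardly differed, with 33.8, 43.1, 37.4 and 35.1 CPM against 34.4, 43.2, 39.5 and 24.0 CPM, and 3 of its 4 pairs lay within 0.08 of equality. Without replicate 4 the blocked fit called 4 members (*Plk1*, *Aurka*, *Cdc20* and *Espl1*, with 0.217% of all genes lower), and adding the GC and length correction gave 3 (*Plk1*, *Aurka* and *Cdc20*, with 0.138%).

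**Figure D3:**
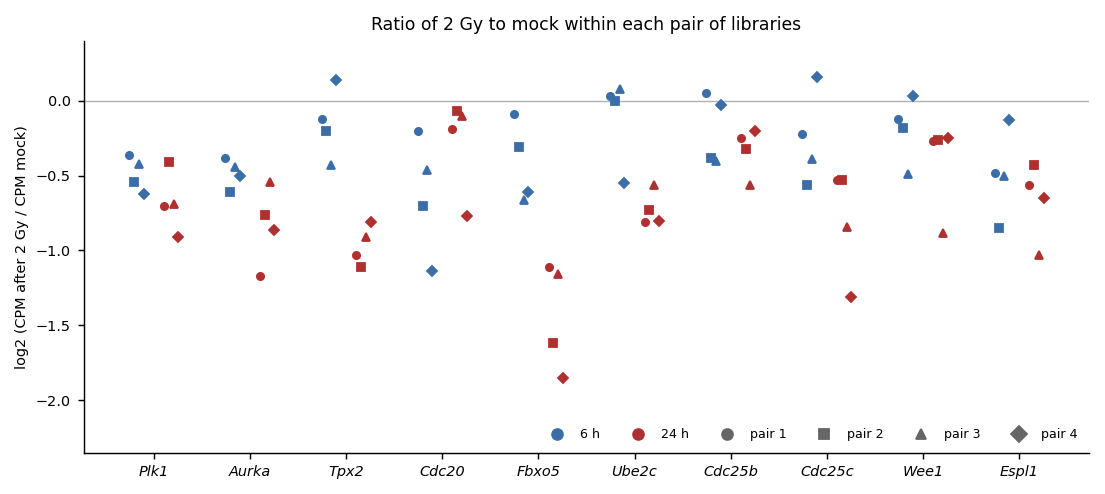
Log2 ratio of CPM after 2 Gy to CPM in the mock-irradiated library of the same replicate number (vertical axis) for each member, at 6 h (blue) and 24 h (red), with a symbol per pair. All ratios at 24 h lie below 0, from −1.85 (*Fbxo5*) to −0.07 (*Cdc20*); for *Tpx2*, *Fbxo5* and *Ube2c* the 24 h points lie below all 6 h points, and for *Cdc20* they do not.

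The change between the times was tested as the interaction of 2 Gy and time over 16 libraries. edgeR's quasi-likelihood test called 0 of 10 members without the block (0% of 16866 genes, 3 members and 4.90% of all genes at an unadjusted p under 0.05, 0 members called by DESeq2). With the replicate number within each time as a block it called 3 of 10 as lower, *Tpx2* (−0.80, SE 0.137, adjusted p = 0.0335), *Fbxo5* (−1.02, SE 0.209, adjusted p = 0.0336) and *Ube2c* (−0.61, SE 0.155, adjusted p = 0.0418), where 3.23% of all genes were called lower. DESeq2 with the block called 3 as well (10.1% of all genes). *Cdc20* had the opposite sign, 0.35 (SE 0.208, adjusted p = 0.275), and for *Plk1* the 2 Gy effects at the times differed by −0.19 (SE 0.142, adjusted p = 0.393). The 3 calls were lost without replicate 1 and without replicate 2, when 0 members were called (0% of all genes lower in both), with a log2 difference of −0.77 for *Tpx2* in both. *Fbxo5* was also lost without replicate 4 (2 members called, 0.407% of all genes lower), and *Ube2c* with library size as the scaling (2 members called, 2.94%). For the other 7 members the blocked fit did not show a difference between the times.

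GC content moved with these fold changes across all genes. The correlation of GC content with the log2 fold change was 0.559 at 24 h after 2 Gy, −0.373 at 6 h and 0.567 for the interaction, over 15855, 15959 and 16821 genes, which are not independent. Of the members called in the interaction, *Tpx2* has a GC content of 47.8% and *Fbxo5* of 45.1%, below the median of 49.5%, while *Ube2c* has 55.5%. Of the 5 members at an unadjusted p under 0.05 at 6 h, *Plk1* (56.0%), *Aurka* (51.4%), *Cdc20* (55.6%) and *Espl1* (56.1%) lie above it and *Fbxo5* below it. *Ube2c* and *Cdc25b* (54.2%) also lie above it, with log2 fold changes at 6 h of −0.08 and −0.20. Corrected for GC content and length, the blocked interaction was −0.70 for *Tpx2*, −0.94 for *Fbxo5* and −0.91 for *Ube2c* (adjusted p = 0.0145, 0.0368 and 0.00581), −0.52 for *Plk1* (adjusted p = 0.0377, a call gained) and 0.01 for *Cdc20*, all in edgeR's quasi-likelihood test. At 24 h the corrected fold changes were −0.89, −1.39 and −0.94 for *Tpx2*, *Fbxo5* and *Ube2c*, and −0.93 for *Plk1*.

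After 0.1 Gy the members stayed close to the mock level at 6 h. Their fold changes had a median of −0.04 on the log2 scale and ran from −0.19 (*Cdc20*) to 0.07 (*Tpx2*), and edgeR's quasi-likelihood test called 0 of 10 members with and without the block (0% of 16020 genes in both). 1 member had an unadjusted p under 0.05 with the block (3.97% of all genes) and 0 without it (0.150%), and DESeq2 called 0 in both forms. At 24 h, 8 of 10 members were below 0 with a median of −0.13 (all genes −0.01). The unpaired test called 0 of 10 (0% of 16183 genes, 1 member and 1.49% of all genes at an unadjusted p under 0.05, DESeq2 0). With the block 2 of 10 were called as lower (4.5% of all genes; DESeq2 2, 8.36%), *Tpx2* at −0.35 (SE 0.0888, adjusted p = 0.0364) and *Fbxo5* at −0.43 (SE 0.122, adjusted p = 0.0496), again in edgeR's quasi-likelihood test. *Tpx2* went from 65.1, 72.4, 60.3 and 60.6 CPM to 52.3, 52.8, 51.6 and 46.9 CPM, and it was the one member of 10 whose groups did not overlap (0.544% of all genes as lower). *Fbxo5* had 6.01, 8.80, 7.17 and 6.73 CPM after 0.1 Gy, which overlapped the mock-irradiated libraries but was lower in 4 of 4 pairs. Both calls were lost with library size as the scaling (2.02% of all genes lower), with all 24 libraries in one fit (0%), and without replicate 1 (4.30%), without replicate 2 (0.118%) or without replicate 4 (0.0925%). Here the correlation of GC content with the fold change across genes was 0.587, and the blocked fit with the GC and length correction called *Tpx2* (−0.30, adjusted p = 0.0348) and *Ube2c* (−0.36, adjusted p = 0.0463) but not *Fbxo5* (−0.38, adjusted p = 0.0811), with 0.508% of all genes called lower by edgeR. *Cdc20* pointed up, with 20.1, 28.5, 30.8 and 24.4 CPM after 0.1 Gy, higher than the paired mock-irradiated library in 4 of 4 pairs, at a log2 fold change of 0.24 that was not called (adjusted p = 0.156 with the block, edgeR) and that was 0.03 after the correction for GC content and length. Without replicate 3 the blocked fit did call *Cdc20* as higher (adjusted p = 0.0462, edgeR), where 11.4% of all genes were called higher.

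Both comparisons with mock-irradiated cells at 24 h share their control libraries, and the doses were therefore also compared with each other, which leaves those libraries out. All 10 members were lower after 2 Gy than after 0.1 Gy, with log2 fold changes from −1.01 (*Fbxo5*) to −0.25 (*Wee1*) and a median of −0.56 (all genes 0.02). edgeR's quasi-likelihood test called 0 of 10 without the block and 0 of 10 with it, as 0% of the 16002 genes were called in both fits. At an unadjusted p under 0.05 there were 7 members without and 10 with the block (1.34% and 4.94% of all genes), and DESeq2 called 3 (*Tpx2*, *Fbxo5* and *Espl1*, 0.208% of all genes) and 5 (0.709%). With the block the lowest adjusted p of a member was 0.0727, for *Fbxo5* (−1.02, SE 0.145). For 5 of 10 members (*Aurka*, *Tpx2*, *Fbxo5*, *Cdc25b* and *Espl1*) every library after 2 Gy lay below every library after 0.1 Gy, which 1.06% of all genes did. In this comparison the trend with GC content was slight (0.0975), and the blocked fit with the GC and length correction called 7 members (0.614% of all genes lower). The blocked fit without replicate 3 called 7 as well (0.802%), and the one without replicate 4 called 1, *Tpx2* (0.245%).

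Time in culture was compared within each dose, mock irradiation included. From 6 h to 24 h, *Ube2c* in mock-irradiated cells went from 33.8, 43.1, 37.4 and 35.1 CPM to 18.4, 23.4, 27.0 and 20.2 CPM, with no overlap. It was the only one of 10 members that the unpaired test called as lower (log2 fold change −0.76, adjusted p = 0.0264, edgeR; 3.46% of all genes). *Espl1* (−0.78, adjusted p = 0.0670) and *Cdc20* (−0.70, adjusted p = 0.0797) were not called by this fit but were by DESeq2 (adjusted p = 0.0255 and 0.0441, with 5.29% of all genes lower) and by edgeR with the block (adjusted p = 0.0160 and 0.0272, with 8.02%), and *Fbxo5* stayed level with 9.62 ± 1.14 and 9.59 ± 1.59 CPM (SD, n = 4 each). After 0.1 Gy, *Ube2c* (−0.90) and *Espl1* (−0.75) were called as lower at 24 h, 2 of 10 members (5.33% of all genes). With the block *Plk1* was called too (−0.58, SE 0.118, adjusted p = 0.00605 by edgeR), 3 members in all, where 14.0% of all genes were called lower. After 2 Gy, 4 of 10 were called (3.92% of all genes), *Ube2c* (−1.38, adjusted p = 0.0143), *Fbxo5* (−1.04, adjusted p = 0.0218), *Espl1* (−0.98, adjusted p = 0.0240) and *Tpx2* (−0.84, adjusted p = 0.00882), all by edgeR. With the block 8 members were called, where 10.4% of all genes were called lower, the added ones being *Plk1* (−0.70, adjusted p = 0.0111), *Aurka* (−0.76, adjusted p = 0.0146), *Cdc25c* (−0.76, adjusted p = 0.0436) and *Cdc25b* (−0.50, adjusted p = 0.0491, edgeR). *Wee1* was nearest to 0, at −0.24 without the block. Single libraries decided the mock-irradiated count. The call of *Ube2c* was lost without any one of the 4 libraries at 6 h, or without replicate 1 or replicate 4 at 24 h, leaving 0 members (0.678% to 2.38% of all genes lower), while 4 members were called without replicate 3 at 24 h (9.40% of all genes lower). After 0.1 Gy 1 member, *Espl1*, was left without replicates 1, 2 or 3 at 6 h or without replicates 1, 3 or 4 at 24 h, with 2.00% to 4.20% of all genes called lower. After 2 Gy 1 member, *Tpx2*, was left without replicate 1 or 3 at 6 h or without replicate 4 at 24 h (1.05%, 0.882% and 0.975% of all genes lower), and 2 without replicate 1 at 24 h (1.16%). Without replicate 3 at 24 h it was 6 (6.03% of all genes lower). These comparisons share their libraries with the dose comparisons, and the time after exposure and the time in culture are told apart only by the interaction.

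Ordered by the group means, 2 Gy at 24 h was the lowest of the 6 groups for all 10 members and for 19.7% of the 17353 genes that passed the filter over all libraries. For *Tpx2*, *Fbxo5*, *Aurka*, *Cdc25b* and *Espl1* the libraries of that group did not overlap those of the next group, as for 0.651% of all genes, and for the other 5 members they did. At the top, mock-irradiated cells at 6 h and cells at 6 h after 0.1 Gy overlapped for every member. *Fbxo5* was the one gene whose mock-irradiated groups at 6 h and 24 h took the first places in this order, while for *Ube2c*, *Plk1*, *Cdc25b* and *Espl1* all 3 groups at 6 h stood at or above the 3 groups at 24 h.

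Other genes of the pathway were counted from lists. In the entry switch list of 12 genes (cyclins A and B, *Cdk1* and their regulators besides the members), 6 were called lower and 0 higher at 24 h after 2 Gy in edgeR's blocked fit (6.69% and 6.53% of all genes), with a median log2 fold change of −0.55 against 0.00 for all genes. The smallest adjusted p-values belonged to *Ccna2* (cyclin A2, −1.36, adjusted p = 0.00144), *Ccnb1* (cyclin B1, −0.90, adjusted p = 0.00298) and *Mastl* (Greatwall, the kinase that restrains the phosphatase opposing CDK1, −1.03, adjusted p = 0.00526). The 11 genes of the spindle checkpoint and the chromosome passengers, which hold the APC/C back until chromosomes are attached, had a median of −0.89 with 8 called lower and 0 higher. *Bub1* (−1.37, adjusted p = 0.00164), *Ttk* (−1.31, adjusted p = 0.00284) and *Mad2l1* (−1.05, adjusted p = 0.00289) led that list. The study itself selected *Ccna2*, *Bub1*, *Ttk*, *Mad2l1* and, also from this list, *Aurkb* as lower on these same libraries, so their direction is no independent evidence either. The 16 subunits and cofactors of the APC/C itself, which most cells express throughout the cycle, had a median of 0.00, with 1 called lower (*Cdc27*, −0.50, adjusted p = 0.0125) and 2 higher (*Anapc11*, 0.48, adjusted p = 0.0210, and *Anapc2*, 0.29, adjusted p = 0.0480), all in edgeR's quasi-likelihood test. Without the block edgeR called 0 genes of the 3 lists, where 6, 8 and 0 genes had an unadjusted p under 0.05 in the entry, checkpoint and APC/C lists (3.59% of all genes) and DESeq2 called 4, 6 and 0 (0.712% of all genes lower). At 6 h after 2 Gy the blocked fit called 0 genes of the lists, with 5, 5 and 0 genes at an unadjusted p under 0.05 (6.88% of all genes) and 0 called by DESeq2. At 24 h after 0.1 Gy it called 3, 1 and 1 as lower (4.5% of all genes) and 0, 0 and 2 as higher (2.34% of all genes), the 2 being APC/C genes.

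**Figure D4:**
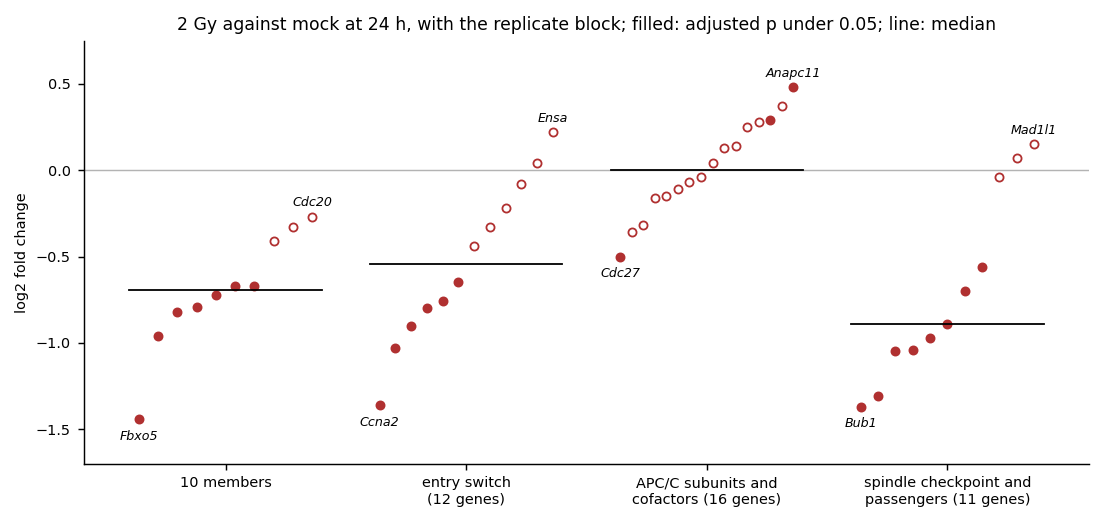
Log2 fold change at 24 h after 2 Gy (vertical axis, fit with the replicate block) of the 10 members and of the genes of 3 lists of the same pathway, each sorted from low to high. Filled points had an adjusted p under 0.05 and lines mark the medians (−0.70, −0.55, 0.00 and −0.89); the APC/C list is spread around 0.

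Markers of proliferation lay beside these values. *Mki67*, the Ki-67 antigen, had a log2 fold change of −1.61 at 24 h after 2 Gy (adjusted p = 0.00109 with the block, 0.274 without it) and of −0.09 at 6 h, and *Top2a*, topoisomerase II alpha, of −1.26 (adjusted p = 0.00144 and 0.184) and −0.08. Both belong to the genes that the study selected on these libraries. *Tpx2* (−0.16) and *Ube2c* (−0.10) were likewise near 0 at 6 h, whereas *Plk1*, *Aurka* and *Cdc20* had values of −0.48, −0.48 and −0.61 there that edgeR's blocked fit did not call either. DESeq2 with the block called *Plk1* and *Cdc20* (0.0683% of all genes lower). The blocked fit with the GC and length correction called all 3 (0.138%). *Cdkn1a*, the p53 target that encodes the CDK inhibitor p21, was higher by 0.57 on the log2 scale at 24 h (adjusted p = 0.00929 with the block, 0.94 without it) and had a value of 0.67 at 6 h (adjusted p = 0.141), log2 values being those of edgeR with the block. Without the block edgeR's quasi-likelihood test called none of these 3 genes at 24 h, whereas the study called *Mki67* and *Top2a* as lower. The summed microglial markers of the groups had medians at 24 h of 1470 CPM in mock-irradiated cells, 1580 after 0.1 Gy and 1620 after 2 Gy, and their part in the members' values was not tested.

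Across the 24 libraries the members rose and fell together, which is given as a description because the libraries share doses, times and cultures. Pearson's r of log2 CPM was above 0 for all 45 pairs of members, from 0.149 to 0.933 with a median of 0.762. *Plk1* and *Aurka* were the closest pair (0.933), followed by *Plk1* and *Espl1* (0.915). After the group means had been removed, the median was 0.426 and the closest pair was *Cdc20* and *Ube2c* (0.890), the activator and the conjugating enzyme of the APC/C. *Wee1* stood apart, with a mean r of 0.363 to the other members and of −0.212 within groups, where it ran against *Plk1* (−0.535) and *Aurka* (−0.522). The genes outside the set whose log2 CPM followed the mean of the members most closely were *Troap* (r = 0.969), *Foxm1* (0.953), *Tacc3* (0.952), *Ccnf* (0.951), *Nek2* (0.943), *Cdk1* (0.943), *Kif2c* (0.941), *Ncaph* (0.941), *Cenpa* (0.940) and *Spag5* (0.939). Single members had their own nearest genes, such as *Kif4* for *Tpx2* (0.974), *Pclaf* for *Fbxo5* (0.954), *Pimreg* for *Cdc20* (0.930), *Tacc3* for *Ube2c* (0.960), *Birc5* for *Aurka* (0.949) and *Mapk4* for *Wee1* (0.878).

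**Figure D5:**
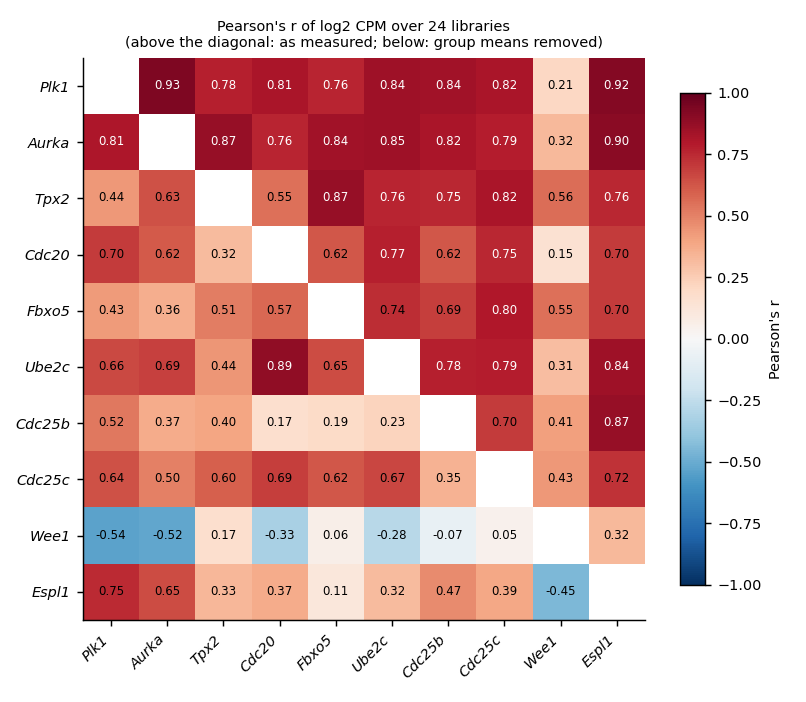
Pearson's r of log2 CPM between members over 24 libraries, above the diagonal as measured and below it after removal of the 6 group means. All cells above the diagonal are positive, with 0.93 for *Plk1* and *Aurka*, 0.89 stands for *Cdc20* and *Ube2c* below it, and the row of *Wee1* is pale above and partly negative below the diagonal.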

How the data were processed

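RNA was isolated on the same day, poly(A)-selected and sequenced in the same run. The authors deposited counts per gene (GRCm38, Ensembl identifiers) for each of 24 libraries, which were taken to be raw counts. The aligner, the counter and its use of strand are not given in the sources used here. Genes were filtered with filterByExpr, scaled by TMM and tested with edgeR 4.0.16 (quasi-likelihood, Benjamini-Hochberg over all genes tested, call at adjusted p under 0.05) in R 4.3.3, with the libraries of the groups compared. Each comparison was fitted without a block and blocked by replicate number. Same-numbered libraries deviated together in every dose comparison (r from 0.514 to 0.907), so that the number pairs libraries within a time. Between times r was 0.0887 to 0.800 in mock-irradiated cells, 0.367 to 0.832 after 0.1 Gy and 0.246 to 0.810 after 2 Gy. For replicate 3 the best match between the times was number 4 in mock-irradiated cells (r with its own number 0.0887) and after 0.1 Gy (0.379). Time comparisons are given unpaired, with the blocked calls beside them. DESeq2 1.42.0, other scalings, other filters, all 24 libraries in one fit, a correction for GC content and length, a minimum fold change and leaving out libraries were the alternatives. P-values without the block set a difference against the spread between 4 biological repeats. With the block they rest on the spread that remains once the replicate number is accounted for. No 2 libraries of a group agreed within sampling noise (lowest chi-square per degree of freedom 28.3). The total count per library (median 24829888.5) sets the counting precision. RPKM used the exonic length of each gene. The scripts were tested on simulated data. The members, gene lists and markers were chosen with earlier results of these data known. All 10 members were named, list genes by the 3 smallest adjusted p-values in each direction among those called, and neighbours by the highest Pearson correlation over 24 libraries. RefSeq promoters were matched by symbol for 7 members, with windows on chromosome 18 left out.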

Additional observations from a re-analysis of the deposited data

Results flagged for a closer look

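In 3 of the 60 groups of 4 libraries tested (10 members in 6 groups), 1 library lay far from the others, and chance alone gives about 1 in 20. At 6 h after 2 Gy replicate 4 had 13.5 CPM of *Cdc20*, while the other 3 libraries had 25.8 to 27.8 CPM. At 6 h after 0.1 Gy replicate 3 had 11.5 CPM of *Fbxo5* (others 7.38 to 7.64 CPM), and at 24 h after 2 Gy replicate 4 had 1.67 CPM of *Cdc25c* (others 3.16 to 3.30 CPM).

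The effect of 2 Gy differed between 24 h and 6 h, in the fit with the replicate block, for *Tpx2* (log2 difference −0.80), *Fbxo5* (−1.02) and *Ube2c* (−0.61). The fit without the block called 0 members (adjusted p = 0.819 for each of the 3, edgeR), and the blocked calls were lost without replicate 1 (adjusted p of 0.120, 0.120 and 0.155) and without replicate 2 (0.286 for each), that of *Fbxo5* also without replicate 4 (0.0703). The call of *Ube2c* was also lost with library size as the scaling.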

How the results depend on the processing

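Counts of called members moved more than directions. For 2 Gy at 24 h the 0 members of the unpaired fit became 3 with DESeq2 (0.712% of all genes lower), 3 with all 24 libraries in one fit (0.617%) and 7 with the replicate block (6.69%; 0 without any single library), and the 7 of the replicate block became 1 with a minimum log2 fold change of 1 (0.610%) and 2 to 9 without a replicate. For 2 Gy at 6 h the replicate block gave 0, DESeq2 with it 2 (0.0683%), all 24 libraries 3 (0.0807%), the GC and length correction 3 (0.138%), and 0 to 4 were called without a replicate. For 0.1 Gy at 24 h 0 became 2 with the replicate block (4.5%), and these became 0 with library size alone (2.02%), all 24 libraries (0%) or the minimum fold change (0.185%), and 0 to 3 without a replicate. The 3 came without replicate 3, *Tpx2* and *Fbxo5* as lower and *Cdc20* as higher. In that fit 11.8% of all genes were called lower and 11.4% higher. For 2 Gy against 0.1 Gy, 0 became 3 with DESeq2 (0.208%) and 1 with all 24 libraries (0.0864%), and with the replicate block 5 with DESeq2 (0.709%), 3 with library size alone (0.250%), 6 with all 24 libraries (0.887%), 7 with the GC and length correction (0.614%) and 0 to 7 without a replicate.

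From 6 h to 24 h in mock-irradiated cells, 1 became 3 with DESeq2 (5.29%), 2 with all 24 libraries (6.62%), 3 with the replicate block (8.02%), 0 with the minimum fold change (2.04%) and 0 to 4 without a replicate. After 0.1 Gy, 2 became 3 with the replicate block (14.0%), 0 with the minimum fold change (2.23%) and 1 to 2 without a replicate. After 2 Gy, 4 became 7 with DESeq2 (5.97%), 7 with all 24 libraries (7.40%), 8 with the replicate block (10.4%), 2 with the minimum fold change (2.05%) and 1 to 6 without a replicate. In the interaction 0 became 3 with the replicate block (3.23%), and these became 2 with library size alone (2.94%), 4 with the GC and length correction (0.951%), 1 with the minimum fold change (0.599%) and 0 to 3 without a replicate. Without replicate 3 the same 3 were called, where 11.3% of all genes were called lower and 12.2% higher. The cause of these shifts was not tested.

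Without a replicate, the log2 fold change of *Ube2c* at 6 h after 2 Gy ran from −0.19 to 0.057 (−0.17 to 0.0407 with the replicate block), that of *Tpx2* at 6 h after 0.1 Gy from −0.13 to 0.23, and that of *Fbxo5* between the times in mock-irradiated cells from −0.10 to 0.0836. Of 150 ranges over the alternatives, each for a member in a comparison and a fit, 21 held values on both sides of 0, and 0 of these 21 were called under any alternative. For the members and comparisons described in the text, 1041 kept direction and side of the threshold, 79 gained a call, 60 lost one and 9 turned. Scalings moved the median of all genes by 0.09 at most. *Cdc25c* had the lowest counts, from 45 per library.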

Other observations

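The balance between the APC/C inhibitor and its activator, taken as the log2 ratio of *Fbxo5* to *Cdc20* counts, was chosen after the values had been seen and is given without a test. At 6 h it was −1.86 ± 0.229 in mock-irradiated cells, −1.87 ± 0.302 after 0.1 Gy and −1.65 ± 0.374 after 2 Gy (SD, n = 4 each). At 24 h it was −1.17 ± 0.390, −1.85 ± 0.184 and −2.33 ± 0.335. The single libraries at 24 h ran from −1.73 to −0.81, from −2.10 to −1.69 and from −2.79 to −2.04, so that neighbouring doses overlapped, and mock irradiation and 2 Gy did not. At 6 h the group means were within 1 SD of each other. *Cdc20* overlaps *Elovl1*, and the GC content of the genes is 55.6% (*Cdc20*) and 45.1% (*Fbxo5*). With the GC and length correction the blocked log2 fold changes at 24 h after 0.1 Gy were −0.38 for *Fbxo5* and 0.03 for *Cdc20*, compared with −0.43 and 0.24 without it, and after 2 Gy −1.39 and −0.53, compared with −1.44 and −0.27.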
